A study of Drosophila mojavensis with 14 samples.

Results

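Lower reproductive tracts of Drosophila mojavensis females taken 6 h after copulation with Drosophila arizonae males (heterospecific mating) were compared with those of virgin females. The comparison held 4 of the 14 arrays of the study, chosen by their labels: 2 of the heterospecific 6 h group and 2 of the virgin group. All 14519 transcripts on the array were tested. Females of every group came from 1 D. mojavensis isofemale line, labelled ANZA 402.17, and the heterospecific males from 1 D. arizonae isofemale line. Each species is thus represented by a single line. Flies were collected as virgins and aged 10 to 12 days. A female of the mated group was placed with 2 males, which were taken out after copulation, while virgin females met no male. Each sample pooled 20 to 25 tracts, and the labels call the 2 samples of a group biological replicates. The remaining arrays held conspecific matings (D. mojavensis males) at 15 min, 2 h and 6 h and heterospecific matings at 15 min and 2 h, with 2 arrays a group.

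The lower reproductive tract of a Drosophila female receives the ejaculate and stores sperm in the seminal receptacle and the spermathecae. Along with sperm, males transfer seminal fluid proteins made mainly in the accessory glands, and in D. melanogaster these are known to change egg laying, feeding and remating of the female. Mating in that species is also followed by changes of transcript levels in the tract, often of genes for proteases, immune proteins and metabolism. An RNA found only in mated tracts can come from the female or be carried over by the male, and the arrays do not tell these sources apart. In pooled tissue, fewer cells of a type and less RNA per cell cannot be told apart either.

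Transcripts are named in the files by a GI number (14471) or by a gene symbol (48). None of the names (0 of 14519) occurred in the reference table of 15130 genes. GI numbers therefore stand as deposited, and their functions were not analysed here. Markers of the tract itself were therefore not checked. Of the planned male markers, names starting with Acp (accessory gland) and Tes (listed as sperm and testis) were present. The sources used here do not state what Tes stands for. Both classes are described below, and neither held a transcript past the threshold. Values are log2 intensities after quantile normalization over all 14 arrays, each summarised from up to 5 probes a transcript. A transcript was called not above background on an array when its value summarised over probes lay below a limit of 7.44 to 7.73 on this scale, set from the dim values of each array. By this measure 5101 transcripts (35.1%) were not above background on any of the 4 arrays and 7559 were above it on all 4.

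The 4 arrays were not alike in quality. Virgin replicate 2 was dim, with an upper quartile of raw probe intensity of 1056 against 2825 on virgin replicate 1 and 2442 and 2664 on the heterospecific 6 h arrays. The median gap between replicate arrays was 0.288 on the log2 scale for the virgins and 0.143 for the heterospecific 6 h group. From the first to the last probe of a transcript, raw log2 intensity rose by a fitted 1.18 and 1.25 in the virgins and by 1.01 and 0.795 at 6 h. The images of both heterospecific 6 h arrays were read on 1 day and those of both virgin arrays on another, so image day and mating cannot be told apart within these 4 arrays.

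At 6 h, 24 transcripts (0.165% of 14519) differed from virgins with a limma adjusted p under 0.05. Of these, 13 were higher (0.0895%) and 11 lower (0.0758%). GI20303 rose 37.8-fold, while the next largest change among the 24, that of GI15792, was 7.22-fold and downward. Below the threshold lay many smaller differences: 2583 transcripts (17.8%) had an unadjusted p under 0.05, beside a nominal 726. Of the 2583, 1485 were higher (10.2%) and 1098 lower (7.56%). The nominal 726 is not a firm baseline. In other comparisons of the same fit the number was as low as 251 (heterospecific 6 h against 2 h). It was as high as 2195 for heterospecific 2 h against virgin. A fitted difference of over 2-fold was seen for 485 transcripts in the higher and 248 in the lower direction, of which the 24 passed. P-values measure the spread between replicate pooled samples over all 14 arrays in 7 groups, not over the 4 compared arrays alone. In a fit of the 4 arrays alone, 1 of the 24 passed. The count rested on single arrays, since it was 389 (198 higher and 191 lower) without virgin replicate 1, 7 without the dim virgin replicate 2, 6 or 4 when heterospecific 6 h replicate 1 or 2 was left out, and 11 when a heterospecific 2 h array was. It was 7 with image day as a block, 11 (9 higher and 2 lower) with median scaling and 53 (22 and 31) with cyclic loess.

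**Figure D1:**
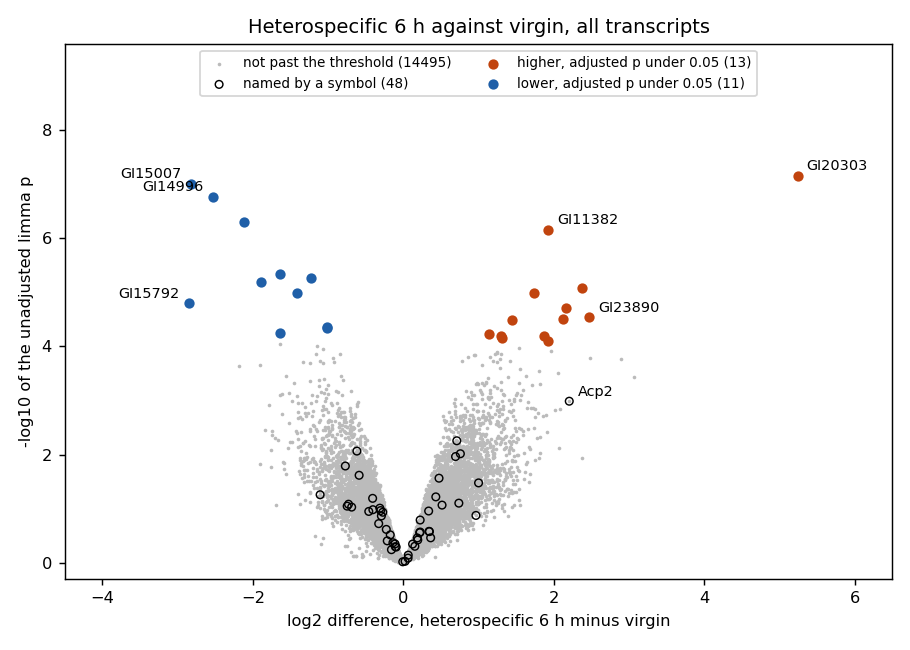
Difference between heterospecific 6 h and virgin arrays on the log2 scale (horizontal axis) against -log10 of the unadjusted limma p (vertical axis), 1 point per transcript. The 13 higher and 11 lower transcripts past the threshold are coloured and the 48 symbol-named transcripts circled; GI20303 lies far to the right at 5.24 and no circled transcript passes.

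The 13 higher transcripts spanned changes of 1.14 to 5.24 on the log2 scale, as fitted, with a median of 1.92. With the transcripts not above background in virgins at their lower bounds, the median was 1.74 and 4 of the 13 changed by over 4-fold. Of the 13, 5 were not above background on either virgin array, 2 were above it on 1 virgin array and 6 on both. All 11 lower transcripts were above background on both virgin arrays and 10 of them on both heterospecific arrays. Their changes ran from -1.01 to -2.85 with a median of -1.64, and 4 changed by over 4-fold. In each of the 24 the 2 heterospecific arrays lay on 1 side of the 2 virgin arrays, a separation that the selection by p favours.

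**Figure D2:**
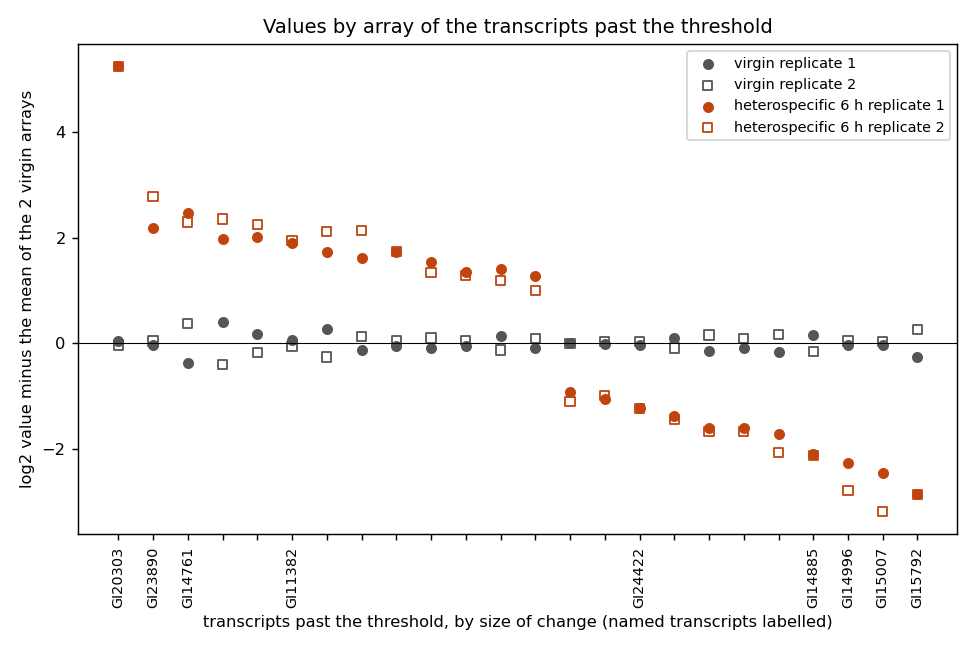
The log2 value of each of the 24 transcripts on the 4 arrays, minus the mean of the 2 virgin arrays, ordered by size of change; grey marks virgin and red heterospecific 6 h, circles replicate 1 and squares replicate 2. The red marks of the 13 higher transcripts lie above every grey mark of the same transcript and those of the 11 lower ones below.

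GI20303 had the largest rise. It lay at 8.04 and 7.97 on the virgin arrays and at 13.25 on both heterospecific 6 h arrays. The virgin values were low but above the background limit, and the groups were far apart. The change of 5.24 (SE 0.40) had a limma adjusted p of 0.000705, and it passed without any 1 of the 14 arrays, with values of 5.21 to 5.27. All 5 probes rose, by 4.93 to 5.37, and their raw intensities moved from between 187 and 702 in virgins to between 5216 and 15456. The rise was not particular to 6 h. At 15 min GI20303 was already at 13.78 and 14.05 after heterospecific and at 13.49 and 13.42 after conspecific mating.

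GI23890 was not above background in virgins, at 7.39 and 7.47, and lay at 9.61 and 10.20 at 6 h. Set against the background limit in virgins, it was at least 4.76-fold higher (SE of the log2 change 0.35, limma adjusted p = 0.0293). With cyclic loess the fitted log2 change was 2.06 (adjusted p = 0.0953). Its 5 probes rose by unequal amounts, from 0.84 at nucleotide 12 to 3.22 at nucleotide 274, beside a fitted summary of 2.47. Leaving out a heterospecific 2 h array (adjusted p = 0.0521), heterospecific 6 h replicate 1 (0.0838) or 2 (0.363), or virgin replicate 2 (0.155) ended the call.

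GI14761, named after its values were seen, lay at 7.32 and 8.07 in virgins and at 10.15 and 9.99 at 6 h. Both mated values were higher than both virgin values, and virgin replicate 1 was not above background. The change was 2.37 (SE 0.30, limma adjusted p = 0.0135), and the adjusted p was 0.0878 or 0.189 without heterospecific 6 h replicate 1 or 2. Of its 5 probes, 4 rose by 1.48 to 2.69, while the first, at nucleotide 163, differed by -0.38. With image day as a block the change was 2.00 (adjusted p = 0.355).

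Among the lower transcripts, GI15007 and GI14996 fell from high levels. GI15007 lay at 12.72 and 12.79 in virgins and at 10.30 and 9.57 at 6 h. It fell by 2.82 (SE 0.22, 7.06-fold, limma adjusted p = 0.000705), with all 5 probes lower by -2.67 to -3.01. GI14996, named for its difference from the 15 min group, lay at 13.05 and 13.13 in virgins and at 10.82 and 10.30 at 6 h. It fell by 2.53 (SE 0.21, adjusted p = 0.000818), with its 5 probes between -2.24 and -2.61. In both transcripts the virgin arrays were within 0.1 of each other and replicate 1 was the higher of the mated arrays. Both falls passed without any 1 array, while with median scaling the change of GI14996 was -1.83 (adjusted p = 0.127).

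GI15792 lay at 11.18 and 11.71 in virgins and at 8.60 and 8.58 at 6 h. Its change of -2.85 (SE 0.38, limma adjusted p = 0.0192) was the largest of the 11. This value came from 4 probes that start between nucleotides 80 and 84 and so read nearly the same stretch of RNA, with changes from -2.42 to -3.58. The fifth probe, at nucleotide 219, was at or near the top of the scanner's range on all 4 arrays, with raw intensities of 62517 to 65535, and cannot show a change (0.03). Leaving out virgin replicate 2 (adjusted p = 0.155), a heterospecific 6 h array (0.0951 and 0.24) or a heterospecific 2 h array (0.0521) ended the call, as did image day as a block (-2.25, 0.388).

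**Figure D3:**
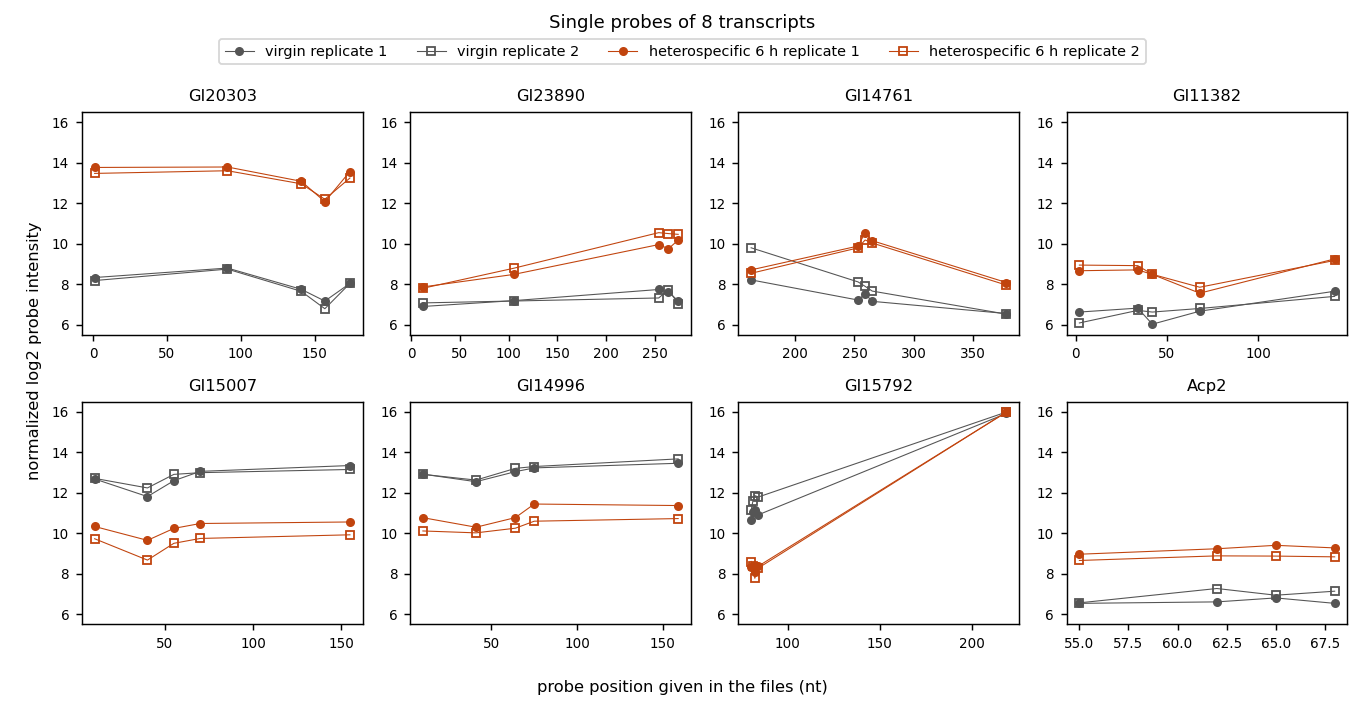
Normalized log2 intensity of each probe (vertical axis) at its position in the transcript as the files give it (horizontal axis, nucleotides) for 8 transcripts on the 2 virgin and 2 heterospecific 6 h arrays. The groups are apart at every probe of GI20303, GI15007 and GI14996, the gap of GI23890 widens along the transcript, and the last probe of GI15792 is near 16 on all 4 arrays.

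Over the 24 transcripts, probes mostly moved in the direction of their transcript: 60 of 63 probes of the higher and 51 of 54 of the lower transcripts did so. Every probe had the same direction in 10 of the 13 higher and 8 of the 11 lower transcripts. The 24 were selected on summaries of these same probes, which favours such agreement. The same shares over all transcripts were not computed. Some probes of a transcript also start within a few nucleotides of each other, as in GI15792, and are not separate readings.

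The earlier heterospecific arrays show the same transcripts at other times. They are set against the same virgin arrays, so the changes from virgin share their controls and are given side by side. Image day ran along this series. The virgin arrays and 15 min replicate 2 were read on 1 day, and 15 min replicate 1 and all 2 h and 6 h arrays on the other. Time and image day therefore cannot be fully told apart here. The fitted rise of raw log2 intensity along a transcript also differed along the series. It was 1.18 and 1.25 in virgins and 1.27 and 1.18 at 15 min. At 2 h it was 1.07 and 0.877, and at 6 h 1.01 and 0.795. Its part in the course of the 24 transcripts was not tested. The median change of the 11 lower transcripts was -0.17 at 15 min, -0.94 at 2 h and -1.64 at 6 h, and all 11 were ordered in that way, each lower at 2 h than at 15 min and lowest at 6 h. At 15 min 10 of them were within 0.5 of the virgin mean. The 13 higher transcripts had no common course. Their fitted medians were 0.82 at 15 min and 1.87 at 2 h, with 7 rising from 15 min to 2 h to 6 h and 4 highest at 15 min. Among these 4, GI20303 lay at 13.78 and 14.05 at 15 min and at 13.25 on both 6 h arrays. GI23890 lay at 10.52 and 11.43 at 15 min and at 9.61 and 10.20 at 6 h. GI11382 lay at 9.14 and 9.45 at 15 min and at 8.66 and 8.71 at 6 h. GI14761, not among the 4, lay at 10.42 and 9.62 at 15 min and at 10.15 and 9.99 at 6 h. The 24 were chosen at 6 h, which favours a value that is most extreme there.

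The direct test of 6 h against 15 min after heterospecific mating called 4 transcripts (0.0276%), 0 higher and 4 lower, and 1424 (9.81%) had an unadjusted p under 0.05. GI15007 stood at 12.94 and 12.71 at 15 min and was lower by 2.89 at 6 h, a log2 difference of -2.89 (SE 0.22, limma adjusted p = 0.000672). GI14996 stood at 13.42 and 13.07 and differed by -2.69 (SE 0.21, adjusted p = 0.000672), which did not pass with median scaling (-2.45, adjusted p = 0.0922). At 15 min the group means of both were within 0.2 of the virgin means. The other 2 were GI14885 and GI24422, named because there were only 4.

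GI14885 lay at 14.82 and 14.51 in virgins and at 14.54 and 14.44 at 15 min, then at 13.87 and 13.88 (2 h) and at 12.56 and 12.54 (6 h). The 6 h arrays were the lowest of these 8 arrays. It differed by -1.94 from 15 min (SE 0.20, limma adjusted p = 0.00537) and by -2.11 from virgins (adjusted p = 0.00178). GI24422 lay at 10.99 and 11.04 in virgins, 11.11 and 11.09 at 15 min, 10.46 on both arrays at 2 h and 9.78 on both at 6 h. It differed by -1.32 from 15 min (SE 0.15, adjusted p = 0.0104) and by -1.23 from virgins (adjusted p = 0.0112), and with median scaling the latter was -0.58 (adjusted p = 0.422). With median scaling neither passed against 15 min (adjusted p of 0.18 and 0.903). For GI14885 against 15 min the call was lost without heterospecific 6 h replicate 1 (0.0694) or 2 (0.127) or heterospecific 15 min replicate 2 (0.0877). For GI24422 the same 3 omissions gave 0.114, 0.221 and 0.123, and against virgins the call was lost without heterospecific 6 h replicate 1 (0.0838) or 2 (0.189) or virgin replicate 2 (0.112).

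The count of 4 became 32 when heterospecific 15 min replicate 1 was left out, 2 when its replicate 2 or heterospecific 6 h replicate 2 was, and 8 when a conspecific 2 h array was. Replicate 2 of heterospecific 15 min was read on the other image day. On the image day of the 6 h arrays alone, where only replicate 1 of 15 min lay, 264 transcripts were called (141 higher and 123 lower), with the lone array assumed to vary like the groups that had 2 arrays there. Against heterospecific 2 h the limma count was 0 (0%) and the lowest adjusted p was 0.548. An unadjusted p under 0.05 was seen for 251 transcripts (1.73%), fewer than the nominal 726. These groups lay on the same image day, and a fit of their 4 arrays alone called 6 (1 higher and 5 lower).

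**Figure D4:**
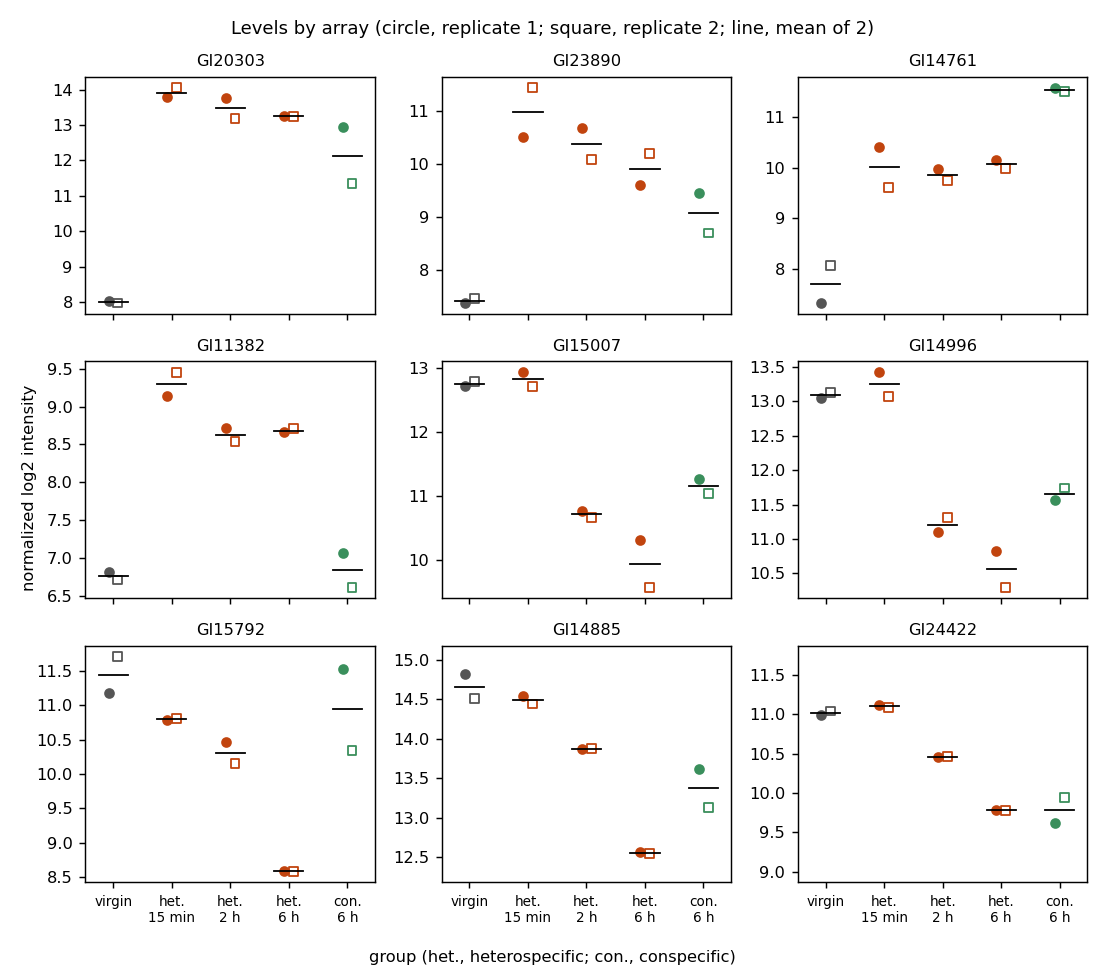
Normalized log2 intensity of 9 transcripts on single arrays of the virgin, heterospecific 15 min, 2 h and 6 h and conspecific 6 h groups; circles are replicate 1, squares replicate 2 and lines the mean of 2, and each panel has its own vertical range. GI15007, GI14996, GI14885 and GI24422 keep their virgin level at 15 min and are lowest at 6 h among the heterospecific groups, and GI11382 lies above 8.5 on the 6 heterospecific arrays and under 7.1 on the virgin and conspecific arrays drawn.

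Set against females mated to their own species and sampled at the same time, the 6 h heterospecific tracts differed at the threshold in 1 transcript (0.00689%), which was higher, while 1428 (9.84%) had an unadjusted p under 0.05. GI11382 was at 8.66 and 8.71 after heterospecific mating, at 7.06 and 6.61 after conspecific mating and at 6.82 and 6.71 in virgins. It was above background on both heterospecific arrays and on none of the other 4. Against conspecific mating its level was at least 2.11-fold higher (log2 SE 0.18, limma adjusted p = 0.0146), and against virgins at least 2.04-fold (adjusted p = 0.002). All 5 probes were higher than in virgins, by 0.97 to 2.45. Leaving out a heterospecific 6 h array (0.118 and 0.375), a heterospecific 2 h array (0.0534) or conspecific 6 h replicate 2 (0.0985) ended the call against conspecific mating, and leaving out heterospecific 6 h replicate 2 (0.0539) that against virgins.

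Of the other named transcripts, none differed between the matings at the threshold. GI24422 lay at 9.62 and 9.94 on the conspecific 6 h arrays, a difference of -0.001 with an SE of 0.15. GI15007 was at 11.27 and 11.04 and GI14996 at 11.56 and 11.74, above both heterospecific arrays, with differences of -1.22 and -1.09 (limma adjusted p of 0.364 and 0.425). GI20303 was at 12.93 and 11.34, a spread between replicates that exceeds the difference of 1.11 (adjusted p = 0.502). Without conspecific 6 h replicate 1 that difference was 1.91 (adjusted p = 0.0321).

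GI14761 was higher after conspecific mating, at 11.59 and 11.52, with a difference of -1.48 (limma adjusted p = 0.502). GI15792 was at 11.53 and 10.35, and its difference of -2.35 (adjusted p = 0.364) became -1.76 (adjusted p = 0.0134) within image day 1, where only conspecific replicate 2 lay and was assumed to vary like the groups with 2 arrays. The median fitted change from virgin to conspecific 6 h tracts was 1.28 for the 13 higher ones, and the changes of the 11 lower ones ran from -0.47 to -1.60, with the virgin arrays shared. Leaving out conspecific 6 h replicate 1 turned the count of 1 into 13, and leaving out a heterospecific 15 min array into 3. It was 0 when conspecific 6 h replicate 2, a heterospecific 6 h array or a heterospecific 2 h array was missing. Within image day 1, again with 1 conspecific array, it was 94 (17 higher and 77 lower).

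Of the 48 transcripts with a gene symbol, 0 passed the limma threshold between heterospecific 6 h and virgin, and 9 (18.8%) had an unadjusted p under 0.05, near the 17.8% of all transcripts. By their names they fall into 4 transcripts called Acp, 25 called Tes, 6 called moj and 13 with other symbols. Acp is the usual name of Drosophila accessory gland proteins, the seminal proteins of the male. What Tes and moj stand for is not stated in the sources used here, and several Tes transcripts were bright in virgin tracts, among them Tes122 at 14.91 and 15.20.

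Acp2 had the largest difference among the 48. It was not above background in virgins, at 6.68 and 6.96, and lay at 9.26 and 8.79 at 6 h, at least 2.59-fold higher (log2 SE 0.49, limma adjusted p = 0.114). All 4 of its probes were higher, by 2.12 to 2.27, but they start within nucleotides 55 to 68 and overlap. The earlier heterospecific arrays held 9.94 and 12.00 (15 min) and 9.46 and 9.91 (2 h), and the conspecific 6 h arrays 6.60 and 6.84, not above background. Against the latter it was at least 2.67-fold higher (adjusted p = 0.502). The wide gap of its 15 min arrays enters the shared spread, and without either of them the 6 h difference from virgins passed (adjusted p = 0.00531).

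The other Acp transcripts were dim. Acp11 was at 6.62 and 6.84 in virgins, not above background, and at 7.47 and 7.46 at 6 h, barely above the limit (limma adjusted p = 0.329). Acp7 was at 7.78 and 7.73 in virgins and 7.46 and 7.47 at 6 h, with an adjusted p of 0.4, and at 8.15 and 7.81 at 6 h after conspecific mating. Acp48 was not above background on any of the 4 arrays. The summed linear level of the 4 was 506 and 540 in virgins, 1072 and 894 at 6 h after heterospecific mating, 1580 and 5138 at 15 min, and 600 and 527 at 6 h after conspecific mating. The heterospecific 6 h sums were above those of the virgin and conspecific 6 h arrays and below those at 15 min, with Acp2 the largest member on both 6 h arrays. The part of male RNA in the 24 changes was not tested.

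Of the 25 Tes transcripts, 12 were not above background on any of the 4 arrays. Their median difference was -0.14, with 9 higher and 16 lower, beside -0.01 for all transcripts. It was 0.15 (6 higher and 5 lower) over the 11 that passed the filter on dim transcripts, and -0.04 (12 and 13) with image day as a block. At an unadjusted p under 0.05 there were 4 higher (Tes124, Tes114, Tes33 and Tes40) and 1 lower (Tes101), with a lowest adjusted p of 0.16. The summarised values of Tes33 and Tes101 were not above background on any of the 4 arrays, although the last probe of Tes33 was at 7.23 and 7.52 in virgins and 9.77 and 9.91 at 6 h, and that of Tes101 at 9.84 and 10.59 in virgins and 8.09 and 8.74 at 6 h. Tes40 had the largest of these values, at 9.31 and 8.63 in virgins and 9.70 and 10.24 at 6 h, a difference of 1.00 (SE 0.41, limma adjusted p = 0.254). Their summed linear level lay between 69763 and 74506 at 6 h and between 78905 and 86032 in virgins.

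The 6 moj transcripts were all above background, and their differences were between 0.19 and 0.69 with a median of 0.28, while 0 of 6 passed. With median scaling the median was 0.80, and with image day as a block 2 of the 6 were lower. moj30 had the largest, at 10.11 and 10.18 in virgins and 10.73 and 10.95 at 6 h (0.69, SE 0.22, limma adjusted p = 0.192). moj29 was the brightest of them, at 15.08 and 15.44 in virgins and 15.37 and 15.58 at 6 h, where the groups overlapped.

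The 13 other symbols had a median difference of -0.01, with 6 higher and 7 lower, and no settled direction: the median was 0.51 with median scaling, -0.22 (2 higher and 11 lower) with image day as a block and -0.30 (2 and 11) without virgin replicate 2. Apart from Adh1 and Adh2, which are described by their symbols alone, roles given here are those known in D. melanogaster. Trap100, a subunit of the Mediator complex of transcription, lay at 8.84 and 9.63 in virgins and 8.58 and 8.34 at 6 h, a difference of -0.77 (SE 0.27, limma adjusted p = 0.213). Adh1, an alcohol dehydrogenase, lay at 9.78 and 9.84 in virgins and 9.18 and 9.26 at 6 h, a difference of -0.59 (SE 0.22, adjusted p = 0.231). Adh2, the second alcohol dehydrogenase, was at 10.52 and 10.64 in virgins and 10.81 and 10.60 at 6 h, overlapping.

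Xdh, xanthine dehydrogenase of purine breakdown and eye pigment synthesis, was at 9.79 and 9.88 in virgins and 9.44 and 8.77 at 6 h, a difference of -0.73 (limma adjusted p = 0.334). The conspecific 6 h arrays were lower still, at 8.06 and 8.31, but the difference of 0.92 between the matings did not pass (adjusted p = 0.502). Dscam, a cell surface receptor of neurons and immune cells, was at 8.84 and 8.12 in virgins, 9.17 and 8.48 at 6 h and 7.81 and 8.03 after conspecific mating. Its virgin and heterospecific values overlapped. The difference was -0.01 (SE 0.18) for snf, a protein of the spliceosome, and 0.06 (SE 0.18) for CtBP, a transcriptional corepressor.

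**Figure D5:**
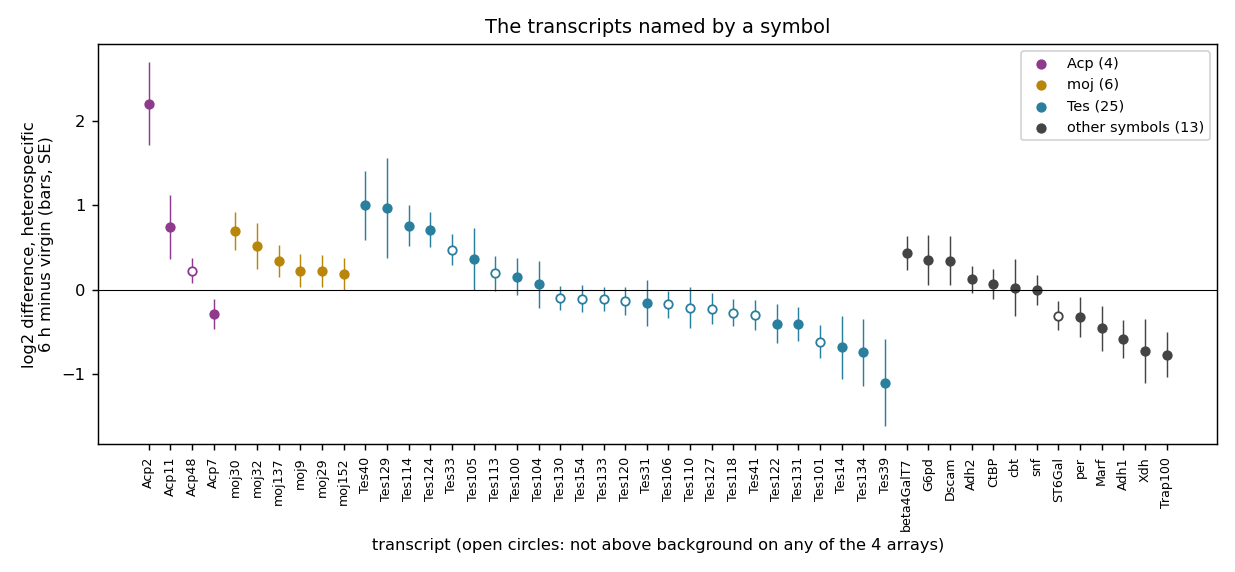
Difference between heterospecific 6 h and virgin arrays on the log2 scale for the 48 transcripts named by a symbol, with the SE of the limma fit as bars; colours mark the Acp, moj, Tes and other names, and open circles transcripts not above background on any of the 4 arrays. Acp2 stands highest, at a fitted value that rests on virgin levels not above background, the 6 moj transcripts lie between 0.19 and 0.69, and none of the 48 passed the threshold.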

How the data were processed

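RNA was amplified and hybridised to 1-colour NimbleGen arrays with Cy3 label, per the labels. The deposited files hold 1 raw perfect-match intensity for each of 71998 probes, read from the array images by NimbleScan 2.4.67, per the file headers. RMA is named in the submitters' processing notes. The deposited value table, however, equalled the raw intensity on every array (0 probes differed), and normalization was done here.

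Intensities were corrected with normexp (offset 50), log2 transformed, quantile normalized over 14 arrays and summarised by median polish (R 4.3.3, limma 3.58.1). The offset understates changes of dim transcripts. limma fitted 1 mean per group over all 14 arrays (7 residual and 3.56 prior degrees of freedom), 2-sided, with Benjamini-Hochberg adjusted p-values over 14519 transcripts at 0.05. The median SE of a difference was 0.224. Precision is limited by the small number of arrays. Nothing was filtered, no sample was dropped, and the procedure was tested on simulated data. There it called 55.2% of changes of 1 on the log2 scale and 95.5% of changes of 2. The simulated noise was independent between arrays and held no differences in array quality or image day. Their effect on the calls was therefore not covered.

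The background limit, chosen after the data were seen, lies 2 SDs above each array's modal transcript value, with the SD taken from the values under that mode. A transcript below it on both arrays of a group has its change given as at least N-fold, the bright group's mean against the higher of limit and value. This bound concerns the level of the dim group alone and does not cover the SE or other settings.

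The comparison, name classes and lists were chosen with earlier results of these data known. The rule named, in each comparison, the GI numbers with the 2 largest rises and the 2 largest falls, and symbol-named transcripts past the threshold, of which there were 0. Because 0 names matched the reference, the gene lists planned by function held 0 transcripts and are not described. No steady pairing by replicate number was seen: over 21 pairs of groups the correlation of deviations ran from -0.63 to 0.51 and exceeded 0.1 in 8. With 2 arrays a group this check cannot exclude pairing. Alternatives covered background correction, normalization, probe summary, variance model, filter, minimum change, replicate and image day blocks, array weights, probe slope, and left-out arrays. A fit of image day 1 alone was added after the data were seen.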

Additional observations from a re-analysis of the deposited data

Results flagged for a closer look

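In 5 cases the effect differed between groups by a test of the difference itself. At 6 h the level of GI11382 on 2 of 2 heterospecific arrays exceeded that on the conspecific arrays by at least 2.11-fold (limma adjusted p = 0.0146). Its fitted log2 difference of 1.85 rests on conspecific levels not above background. Between 6 h and 15 min after heterospecific mating GI15007 differed by -2.89 and GI14996 by -2.69 (adjusted p = 0.000672 for both), GI14885 by -1.94 (adjusted p = 0.00537) and GI24422 by -1.32 (adjusted p = 0.0104), each lower on 2 of 2 arrays at 6 h than on both arrays at 15 min. With median scaling only GI15007 of these 4 kept its call, with adjusted p-values of 0.0922 for GI14996, 0.18 for GI14885 and 0.903 for GI24422. That of GI24422 was also lost with a normexp offset of 0 (0.092) and with trend and robust settings (0.0988). The statistic for a single outlying array needs at least 4 arrays a group and was not used here.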

How the results depend on the processing

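Over 29 other settings, 14 of them leaving out 1 array, none of the 24 transcripts changed sign between heterospecific 6 h and virgin. GI20303 passed in 29 settings, GI15007 in 28, GI14996 in 27, GI11382 and GI14885 in 25, GI14761 in 23, GI24422 in 21, GI15792 in 20 and GI23890 in 19. The count of 24 became 11 with median scaling (9 of the 24 among them), 53 with cyclic loess, 1 (1 of the 24) in a fit of the compared groups alone, 3 (3) with a minimum change of 2-fold, 7 (6) with image day as a block, 56 with array weights, 14 (12) with probe slope as a covariate and 79 without the 4 dim arrays. With the replicate number as a block it was 18, with 15 of the 24, and GI23890 then had a limma adjusted p of 0.0557. Pairing by replicate number was neither shown nor excluded. The 4 dim arrays were virgin replicate 2, conspecific 15 min replicate 2, conspecific 2 h replicate 1 and conspecific 6 h replicate 1. Without them the virgin and conspecific 6 h groups held 1 array each, assumed to vary like the groups that kept 2. Without 1 array the count ran from 4 to 389, with 4 to 24 of the 24.

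Against conspecific 6 h the count of 1 became 0 with median scaling, in the groups alone and with a minimum of 2-fold, 39 without the 4 dim arrays and 94 on image day 1 alone (1 conspecific array), and 0 to 13 without 1 array. Against heterospecific 15 min the count of 4 became 2 with median scaling (1 of the 4 among them) or a minimum of 2-fold, 34 in the groups alone, 81 with array weights, 799 without the 4 dim arrays, 264 on image day 1 alone, and 2 to 32 without 1 array. Against heterospecific 2 h the count of 0 became 6 in the groups alone or on image day 1 alone, 9 with array weights and 1 without the 4 dim arrays, and stayed 0 without any 1 array. Where a setting did not itself remove arrays, the cause was not tested. The 35.1% of transcripts not above background on any of the 4 arrays limit what could be seen.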
